A study of Mus musculus with 6 samples.

Results

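The semaphorin, plexin, neuropilin, Eph and ephrin genes encode the ligands and receptors of 2 guidance systems. Members were the genes whose array annotation gives a single symbol of the Sema3 to Sema7, Plxn, Nrp, Epha, Ephb, Efna or Efnb series, each read by its probe set of highest mean over all arrays. This gave 52 genes of the 19938 tested: 20 semaphorins, 11 plexins and neuropilins, 13 Eph receptors and 8 ephrins. Ephb2 was not analysed here. RNA of dissected mandibular arches, the part of the first pharyngeal arch that forms the lower jaw, was hybridised from C57BL/6 mouse embryos at embryonic day 9.5. The wild-type group was Tbx1+/+ (3 arrays) and the other Tbx1-/-, here called Tbx1 null (3 arrays), and the labels give no further allele or treatment for either. The T-box transcription factor TBX1 acts in the developing pharynx, and the comparison shows how arch transcripts differ in its absence. Arches of 3 embryos per genotype were pooled, and the sources used here do not say whether each array had its own pool, so the p-values measure the spread between arrays, part of which may be technical.

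Secreted class 3 semaphorins bind neuropilins, which signal through A-type plexins and Plxnd1, while most membrane semaphorins bind plexins directly. Ephrins are held at the cell surface, ephrin-A ligands by a lipid anchor and ephrin-B ligands by a transmembrane segment, and they signal to Eph receptor tyrosine kinases on neighbouring cells, with a return signal into the cell that carries the ephrin. In the embryonic head both systems are known for steering streams of migrating neural crest, sorting cells at tissue boundaries, guiding cranial axons and shaping vessels.

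Tbx1 itself had a log2 level of 11.64, 11.36 and 11.31 on wild-type replicates 1, 2 and 3 and of 9.48, 9.39 and 9.63 on the Tbx1 null arrays, a log2 change of -1.94 (limma adjusted p = 0.000684). Levels are the authors' log2 values, changes are Tbx1 null minus wild type, and an adjusted p is over all genes tested. Array medians lay between 7.98 and 8.04, the median SE of a change was 0.058, and the number of arrays limits the precision. A pair of arrays stood apart. Markers of migratory neural crest and glia, such as Sox10, averaged 10.06 on wild-type replicate 1 against 9.44 and 9.55 on the other wild-type arrays and 9.22 to 9.41 in Tbx1 null (6 of 8 listed genes measured). Y-linked transcripts averaged 5.73 on Tbx1 null replicate 3 and 8.57 to 9.85 on the other 5 arrays. Tbx1 null replicates 1 and 2, at 9.58 and 9.28, thus did not share 1 pool with replicate 3. Of the arch mesenchyme list 12 of 12 genes were measured, and its mean level was 11.37 to 11.63 in wild type and 11.61 to 11.78 in Tbx1 null. In tissue RNA, fewer cells of a type and less RNA per cell cannot be told apart.

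No member passed an adjusted p of 0.05, which 0.16% of all genes did; the smallest adjusted p was 0.123, of Sema4g. At an unadjusted limma p under 0.05, 11 members were higher and 1 was lower in Tbx1 null. Over all genes these shares were 5.5% and 3.94%. The higher members were the semaphorin genes Sema3a, Sema3c, Sema4b, Sema4g, Sema6a and Sema6c, the plexin gene Plxna2, and the Eph receptor genes Epha3, Epha4, Epha7 and Ephb4. Efnb2 was the lower one. The arrays of the genotypes did not overlap for 16 members that were higher and 1 that was lower, against 8.36% and 7.06% of all genes. The median log2 change was 0.069 over the members and -0.0061 over all genes, and 34 of 52 members lay above 0, as did 46.5% of all genes. After quantile normalisation of all probe sets again the unadjusted counts were 10 higher and 3 lower, and after centring on the median 10 and 1. The shares of all genes turned from more higher to more lower under both, to 4.51% higher and 7.12% lower after quantile normalisation and 4.67% higher and 5.42% lower after centring. Without Tbx1 null replicate 3 the member counts were 7 higher and 2 lower, against 4.3% and 3.3% of all genes. Without wild-type replicate 1 they were 10 and 0, against 5.4% and 4.3%. Without wild-type replicate 2 they were 9 and 0, against 4.0% and 3.3%.

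**Figure D1:**
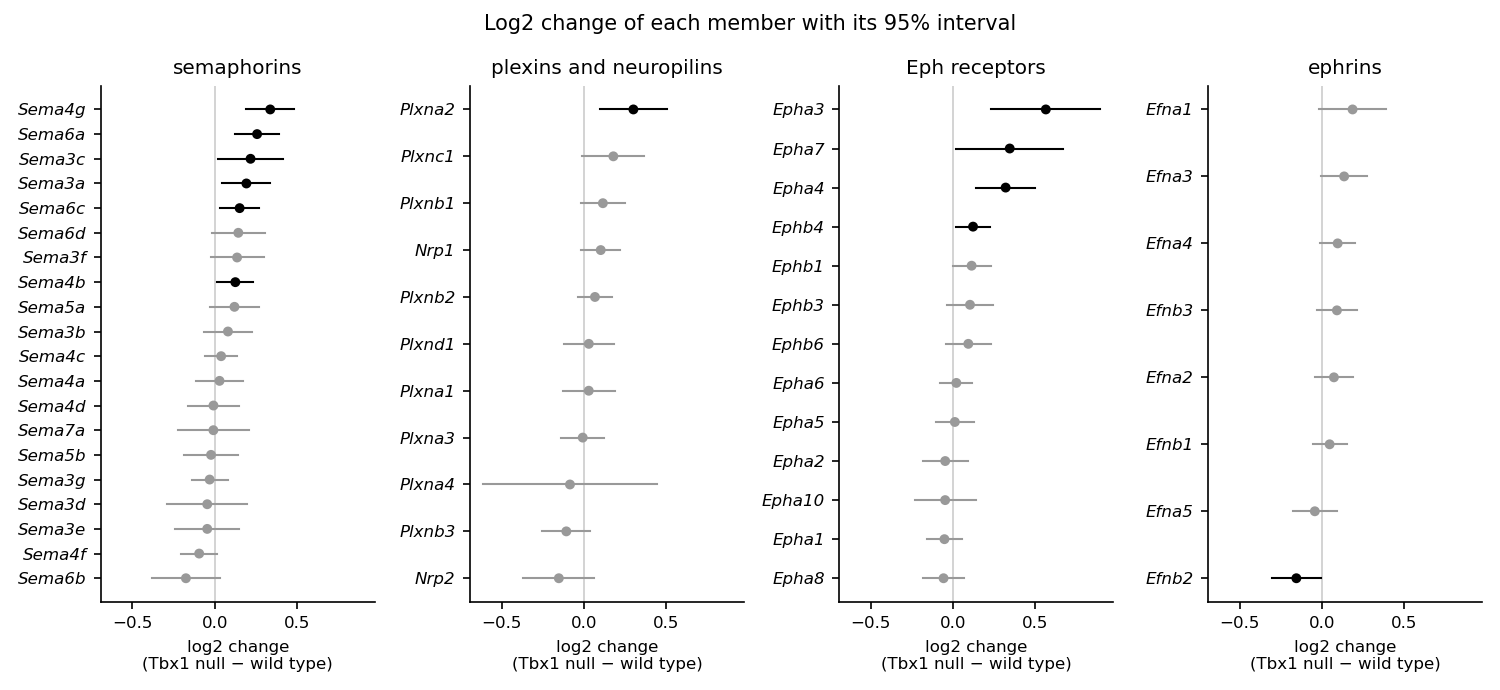
Log2 change (Tbx1 null minus wild type, horizontal axis) of the 52 members in 4 families, each point with its 95% confidence interval from limma. Black marks the 12 members at an unadjusted p under 0.05; Epha3 has the largest change, 0.56, and Efnb2 is the only black point below 0.

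The semaphorin ligands had a median change of 0.059. At an unadjusted p under 0.05, 6 of 20 were higher and 0 lower, against 5.5% and 3.94% of all genes. Changes ran from -0.18 for Sema6b to 0.34 for Sema4g. Without Tbx1 null replicate 3 the median was 0.035. Sema4g, a transmembrane semaphorin (probe set 10463430, Entrez gene 26456), read 8.72, 8.82 and 8.84 on the wild-type arrays and 9.22, 9.13 and 9.03 on the Tbx1 null arrays. Every Tbx1 null array lay above every wild-type array. The log2 change was 0.34 (SE 0.062, 1.26-fold, limma adjusted p = 0.123), and it stayed between 0.29 and 0.39 with any array left out. Sema6a, a transmembrane ligand of Plxna2 and Plxna4 (probe set 10458843, Entrez gene 20358), read 10.81, 10.83 and 10.93 in wild type and 11.11, 11.04 and 11.20 in Tbx1 null. Its groups did not overlap either, and the change was 0.26 (SE 0.057, 1.20-fold, adjusted p = 0.179). With arrays weighted by their fit to the model, Sema4g and Sema6a passed (adjusted p = 0.0172 and 0.0383); these were the only members to pass in any setting, and over all settings their adjusted p ran up to 0.421 and 0.448.

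Sema6c, of the same class, read 8.40, 8.33 and 8.43 in wild type against 8.58, 8.47 and 8.56, with no overlap and a change of 0.15 (SE 0.050). Sema4b read 9.69, 9.64 and 9.77 against 9.82, 9.82 and 9.84. Its change was 0.13 (SE 0.047), and the 3 Tbx1 null arrays lay within 0.028 of one another. The remaining class 6 genes went apart. Sema6d had a change of 0.14 (95% interval -0.019 to 0.31). Sema6b, with -0.18 (interval -0.38 to 0.033), was high on wild-type replicate 1 alone, at 9.06 against 8.60 to 8.78 on the other 5 arrays. Its second probe set carries identical values.

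Among the secreted class 3 semaphorins, Sema3a, the classical repellent of axons and crest cells (probe set 10519717, Entrez gene 20346), read 11.10, 11.19 and 11.31 in wild type and 11.37, 11.46 and 11.35 in Tbx1 null. The gap between the genotypes was 0.040, between wild-type replicate 3 and Tbx1 null replicate 3, and the change was 0.19 (SE 0.063, adjusted p = 0.383). Sema3c, which is known for guiding crest cells to the cardiac outflow tract (probe set 10519886, Entrez gene 20348), read 8.77, 9.001 and 9.076 against 9.26, 9.10 and 9.14. Here wild-type replicate 1 was the low array: the change was 0.22 (SE 0.084, adjusted p = 0.459), and without that array 0.13. Sema3f had a change of 0.14 (interval -0.025 to 0.30) and Sema3b of 0.080. Sema3d, Sema3e and Sema3g had changes of -0.046, -0.046 and -0.031. In the RefSeq gene order Sema3d and Sema3a are adjacent protein-coding genes, and 3 others lie between Sema3a and Sema3e. The difference between Sema3a and these neighbours was not tested.

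The other semaphorins had changes between -0.095 and 0.12. Sema4f was the only member whose Tbx1 null arrays all lay below wild type: 7.36, 7.38 and 7.38 against 7.34, 7.22 and 7.27, a change of -0.095 (interval -0.20 to 0.013). Sema5a, a transmembrane semaphorin with thrombospondin repeats, had a change of 0.12 and Sema5b of -0.023. Sema4a, Sema4c and Sema7a, the last tethered by a lipid anchor, had changes of 0.029, 0.039 and -0.0084. The probe sets of Sema4d went opposite ways, with -0.0080 for the brighter and 0.082 for the other, so no direction is given.

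**Figure D2:**
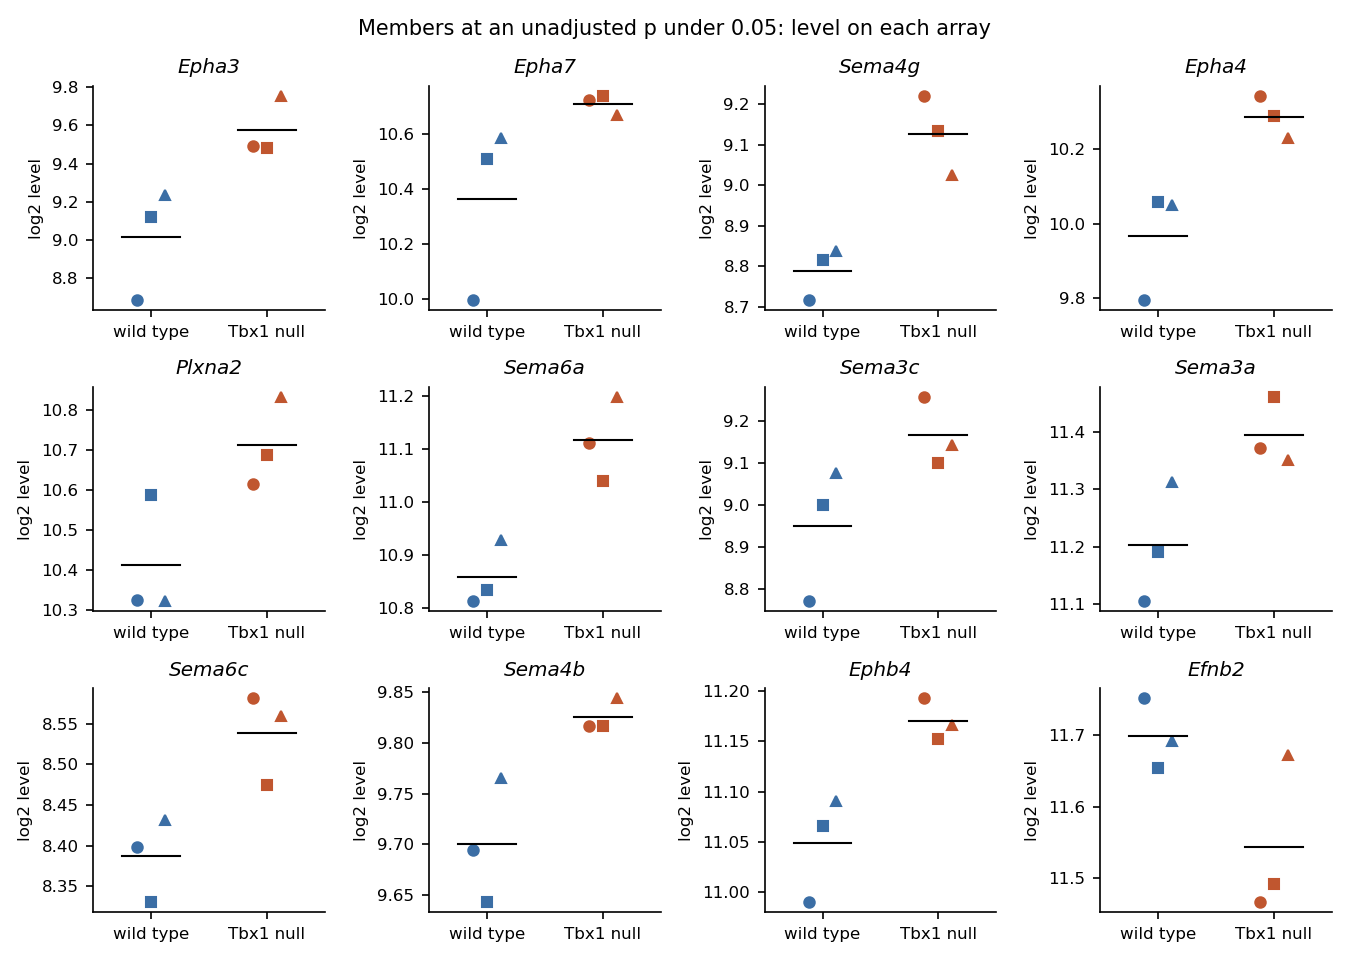
Log2 level (vertical axis, scaled per gene) on each array for the 12 members at an unadjusted p under 0.05; circle, square and triangle are replicates 1, 2 and 3, and black lines are group means. The genotypes do not overlap for 11 of them, while for Efnb2 Tbx1 null replicate 3 lies among the wild-type arrays.

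The receptors of the semaphorins, plexins and neuropilins, had a median change of 0.030. At the unadjusted threshold 1 of 11 was higher and 0 were lower, against 5.5% and 3.94% of all genes. Without Tbx1 null replicate 3 this median was 0.0042, without Tbx1 null replicate 1 or 2 it was 0.059 or 0.073, and in the absence of wild-type replicate 1 0.066. Plxna2, a receptor of Sema6a and of the neuropilin-bound class 3 ligands (probe set 10352867, Entrez gene 18845), read 10.32, 10.59 and 10.32 in wild type and 10.62, 10.69 and 10.83 in Tbx1 null. Wild-type replicate 2 came within 0.028 of the lowest Tbx1 null array. The change was 0.30 (SE 0.088, 1.23-fold, adjusted p = 0.327), and with arrays weighted it was 0.15. Plxnc1, the receptor of Sema7a, had a change of 0.18 (interval -0.0099 to 0.37), with overlapping arrays.

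For the other plexins the highest array was often the same one. Plxna1 read 11.52, 11.50 and 11.45 in wild type and 11.46, 11.43 and 11.67 in Tbx1 null, and Plxnd1, the receptor of endothelial cells, 11.32, 11.29 and 11.24 against 11.26, 11.23 and 11.45. In both genes only Tbx1 null replicate 3 exceeded the wild-type arrays, and the changes were 0.029 and 0.030, turning to -0.044 and -0.039 without it. Both were below 0 with the Y-linked level as a covariate (-0.027 and -0.024). That level mainly sets Tbx1 null replicate 3 apart (5.73, against 8.57 to 9.85 on the other arrays), so this is not a separate check. The B-type plexins Plxnb1 and Plxnb2 had changes of 0.12 and 0.067 with no overlap between the groups (interval -0.020 to 0.25 and -0.037 to 0.17), and Plxnb3 had -0.11. Over all members, Tbx1 null replicate 3 was the highest of the 6 arrays for 19 of 52 genes (36.5%, against 20.4% of all genes). Tbx1 null replicate 1 was the highest for 11 (21.2%, against 12%) and replicate 2 for 4 (7.69%, against 10.2%). Wild-type replicate 1 was the lowest for 19 (36.5%, against 21.1%) and the highest for 12 (23.1%, against 21.8%). The part of the pools' makeup in these values was not tested.

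The neuropilins had changes of opposite sign. Nrp1, a co-receptor of Sema3a and of VEGF, read 9.85, 9.85 and 9.88 in wild type and 9.89, 9.95 and 10.05 in Tbx1 null, a change of 0.10 (interval -0.017 to 0.22). Nrp2, the co-receptor favoured by Sema3f, read 10.91, 10.65 and 10.66 against 10.53, 10.48 and 10.75. It overlapped between the groups, with a change of -0.15 (interval -0.37 to 0.063) that was -0.070 without wild-type replicate 1, -0.098 without Tbx1 null replicate 2 and -0.23 without Tbx1 null replicate 3. Plxna4, named after its values were seen, had the widest spread of the members: 11.14, 10.43 and 10.28 in wild type and 10.41, 10.32 and 10.86 in Tbx1 null. Its interval, -0.62 to 0.45, allows a change of either sign. Plxna3 had a change of -0.0071.

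**Figure D3:**
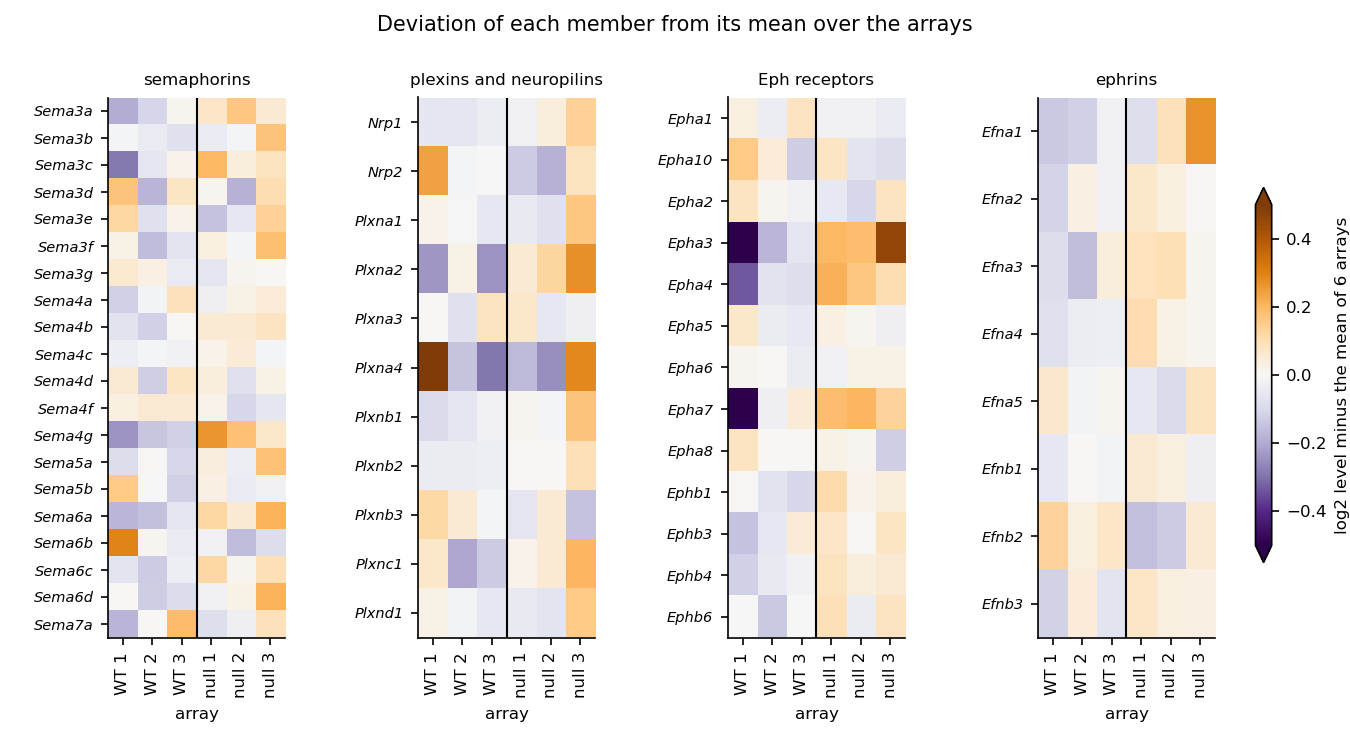
Each member's log2 level minus its mean over the 6 arrays (colour scale, clipped at 0.5 either way), genes in rows by family and arrays in columns, wild type left of the black line. Epha3, Epha4 and Epha7 are dark at wild-type replicate 1, while Tbx1 null replicate 3 is the highest array for 6 of 9 plexins.

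The ephrin ligands had a median change of 0.080. At the unadjusted threshold 0 of 8 were higher and 1 was lower, against 5.5% and 3.94% of all genes. Without wild-type replicate 1 the median was 0.044. Efnb2, a transmembrane ligand known in arterial endothelium and crest cell guidance (probe set 10576911, Entrez gene 13642), read 11.75, 11.65 and 11.69 in wild type and 11.47, 11.49 and 11.67 in Tbx1 null. Tbx1 null replicates 1 and 2 lay below wild type, and replicate 3 lay within it. The change was -0.16 (SE 0.064, 1.11-fold lower, adjusted p = 0.492), and it was -0.22 without Tbx1 null replicate 3. None of 10 endothelial markers reached an unadjusted limma p under 0.05 in either direction (0 at an adjusted p of 0.05). Their mean level was 10.59, 10.57 and 10.59 on the wild-type arrays and 10.47, 10.51 and 10.67 on the Tbx1 null arrays. Tbx1 null replicates 1 and 2 thus lay below wild type, as for Efnb2, and replicate 3 lay above it. The part of endothelial cells in the Efnb2 values was not tested. The other ephrin-B genes, Efnb1 and Efnb3, had changes of 0.045 and 0.090, with overlapping arrays.

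Of the 5 ephrin-A genes 4 had values above 0. Efna1 read 10.41, 10.42 and 10.52 against 10.46, 10.64 and 10.81, a change of 0.18 (interval -0.017 to 0.39) that was 0.097 without Tbx1 null replicate 3. Efna3 had a change of 0.13 (interval -0.0074 to 0.27). Efna4 read 11.41, 11.46 and 11.46 against 11.60, 11.52 and 11.50, with no overlap and a change of 0.094 (interval -0.012 to 0.20). These 3 genes are adjacent in the RefSeq gene order, with 0 protein-coding genes between them. Efna2 had a change of 0.071 and Efna5, the remaining one, of -0.045.

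The Eph receptors included the member of largest change, Epha3. At an unadjusted p under 0.05, 4 of 13 were higher and 0 lower, against 5.5% and 3.94% of all genes. The median change was 0.093, or 0.053 when wild-type replicate 1 was left out and 0.049 for replicate 2. Epha3, a receptor of ephrin-A ligands (probe set 10440258, Entrez gene 13837), read 8.68, 9.12 and 9.23 in wild type and 9.49, 9.48 and 9.75 in Tbx1 null. The groups did not overlap, and the wild-type arrays spread over 0.55. The change was 0.56 (SE 0.14, 95% interval 0.23 to 0.90, 1.48-fold, limma adjusted p = 0.241), and without wild-type replicate 1 it was 0.40. Epha4, which binds ephrins of both classes (probe set 10355893, Entrez gene 13838), read 9.79, 10.06 and 10.05 against 10.34, 10.29 and 10.23, a change of 0.32 (SE 0.077, 1.248-fold, adjusted p = 0.221). Epha7, another ephrin-A receptor (probe set 10503659, Entrez gene 13841), read 9.997, 10.51 and 10.59 against 10.72, 10.74 and 10.67. Its change of 0.34 (SE 0.14, adjusted p = 0.486) was 0.16 without wild-type replicate 1.

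In each of these 3 genes wild-type replicate 1 was the lowest array. On that array the mean level of the neural crest and glia list was highest, as was each of its 6 genes. The mean level of the mesenchyme list was lowest there, with 6 of its 12 genes at their lowest. Of the 12 mesenchyme markers 5 were higher and 0 lower, again at an unadjusted p of 0.05 (Alx4, Hand2, Msx1, Prrx1 and Prrx2, with changes of 0.22, 0.56, 0.44, 0.19 and 0.23). For this and the lists that follow, the shares of all genes at that threshold were 5.5% higher and 3.94% lower. The crest and glia markers had 0 higher and 2 lower, Ngfr (-0.70, limma adjusted p = 0.0142) and Sox10 (-0.85, which did not pass at adjusted p = 0.435). The 7 measured erythroid genes (of 8 listed) were all lower in Tbx1 null at the unadjusted threshold, with no overlap between the groups, and their mean level was 10.03 to 10.11 in wild type and 9.73 to 9.80 in Tbx1 null. Of the 5 measured genes of the myogenic core mesoderm, 4 were lower, with a list mean of 9.13 to 9.30 against 8.43 to 8.63. The largest of these changes was that of Lhx2 (-1.56, limma adjusted p = 0.000784). Of the 4 second arch genes, Hoxa2 (1.11, adjusted p = 0.126) and Hoxb2 (0.63, adjusted p = 0.0577) were higher, each without overlap. Epithelial markers had 2 of 8 higher and 0 lower, and cranial neuron markers 1 of 10 higher and 2 lower. The part of any of these cell types in the members' values was not tested.

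**Figure D4:**
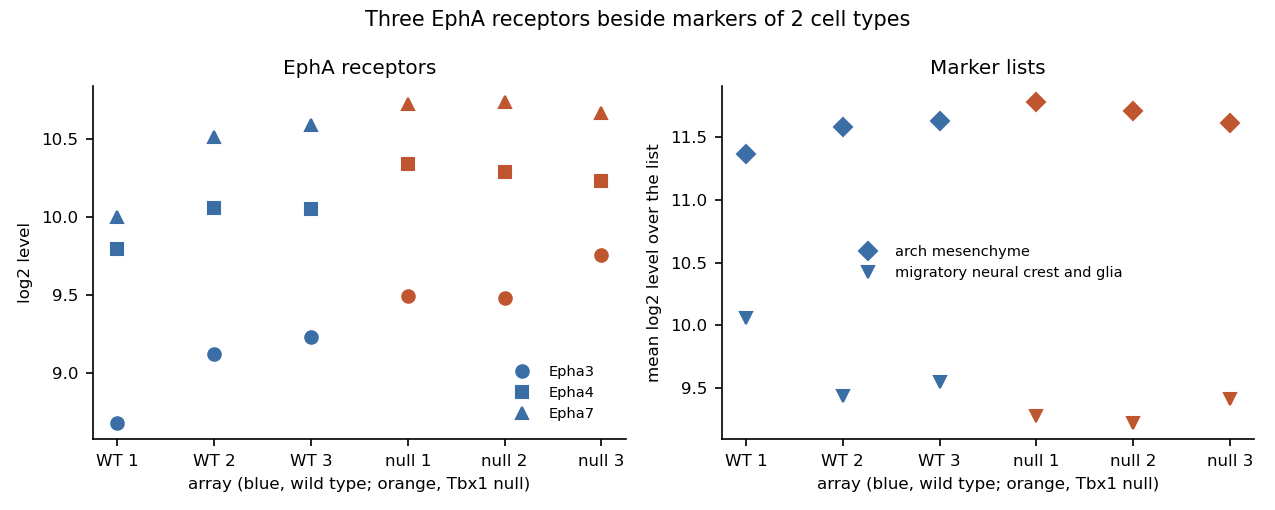
Left, log2 level of Epha3, Epha4 and Epha7 on each array; right, mean log2 level of the arch mesenchyme list (12 genes) and of the neural crest and glia list (6 genes) on the same arrays. Wild-type replicate 1 is lowest for the 3 receptors and for the mesenchyme list (11.37) and highest for the crest list (10.06).

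The other A-type receptors Epha1, Epha2, Epha8 and Epha10 had changes of -0.052, -0.048, -0.058 and -0.048, and Epha5 and Epha6 of 0.011 and 0.020. Epha6 lies 4 protein-coding genes from Epha3 in the RefSeq order. The 4 B-type receptors all had values above 0 (median 0.11), and all 4 kept this sign with any 1 array left out. For Ephb1 and Ephb4, whose arrays did not overlap, no such fit could have changed it. Ephb4, the receptor of Efnb2 on venous endothelium (probe set 10526566, Entrez gene 13846), read 10.99, 11.07 and 11.09 against 11.19, 11.15 and 11.17, a change of 0.12 (SE 0.046, adjusted p = 0.442) with no overlap. Ephb1 read 7.51, 7.44 and 7.40 against 7.62, 7.52 and 7.55, a gap of 0.012 between the groups and a change of 0.11, and its second probe set gave 0.11 as well. Ephb3 had a change of 0.10 (interval -0.035 to 0.24). Ephb6, whose kinase is inactive, had 0.093 (interval -0.043 to 0.23).

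Since Tbx1 is a T-box factor, the 250 bases upstream of each RefSeq start (GRCm38.p6) were searched for AGGTGT, the core that T-box proteins are known to bind, and for the longer AGGTGTGA, which contains it, on both strands. Starts were given for 46 of the 52 members. AGGTGT stood upstream of 6 of them (13%): Ephb1, Sema3d, Sema3g, Sema4a, Sema4f and Sema6d. Over all 27025 genes with a start the share was 13.6%. AGGTGTGA was found for 0 members and for 1.3% of all genes. Of the 12 members at an unadjusted p under 0.05, 11 had a start and 0 held AGGTGT. The sequences below are those of the 3 Eph receptors with the largest changes, of Sema4g with the lowest p, and of Ephb1, the Eph receptor that holds a match; each reads 5′ to 3′ towards the start, and capitals mark AGGTGT.
Epha3 (chr16:63864176-63864425, minus strand): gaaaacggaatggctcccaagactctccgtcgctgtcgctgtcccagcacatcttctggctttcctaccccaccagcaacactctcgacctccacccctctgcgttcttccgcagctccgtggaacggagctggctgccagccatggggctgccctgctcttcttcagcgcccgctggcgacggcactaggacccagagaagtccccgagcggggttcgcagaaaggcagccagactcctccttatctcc
Epha4 (chr1:77515089-77515338, minus strand): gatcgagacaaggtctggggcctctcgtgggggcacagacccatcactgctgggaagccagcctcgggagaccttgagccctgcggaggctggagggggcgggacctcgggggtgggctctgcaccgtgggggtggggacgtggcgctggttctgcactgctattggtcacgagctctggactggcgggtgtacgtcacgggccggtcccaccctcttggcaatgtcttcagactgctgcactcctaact
Epha7, the first of its 2 starts (chr4:28812881-28813130, plus strand): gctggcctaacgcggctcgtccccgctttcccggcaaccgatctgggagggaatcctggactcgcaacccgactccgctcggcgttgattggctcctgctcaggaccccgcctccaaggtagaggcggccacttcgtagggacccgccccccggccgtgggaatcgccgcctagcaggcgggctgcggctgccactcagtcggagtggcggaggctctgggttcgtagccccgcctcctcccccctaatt
Sema4g (chr19:44989094-44989343, plus strand): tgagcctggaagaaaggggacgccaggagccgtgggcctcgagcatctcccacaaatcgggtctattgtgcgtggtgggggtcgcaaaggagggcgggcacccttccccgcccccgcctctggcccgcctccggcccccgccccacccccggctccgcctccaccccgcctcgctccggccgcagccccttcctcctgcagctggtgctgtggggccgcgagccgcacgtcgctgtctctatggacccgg
Ephb1 (chr9:102354694-102354943, minus strand): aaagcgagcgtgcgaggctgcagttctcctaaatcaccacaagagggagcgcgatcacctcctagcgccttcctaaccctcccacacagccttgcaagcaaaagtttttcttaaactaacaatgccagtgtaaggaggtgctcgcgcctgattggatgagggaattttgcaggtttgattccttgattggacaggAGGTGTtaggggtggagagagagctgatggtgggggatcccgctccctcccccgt
The match of Ephb1 begins 55 bases before the start, on the strand of the gene. The windows of Epha3, Epha4, Epha7 and Sema4g had GC contents of 62.8%, 66%, 69.2% and 73.2% and held 16, 14, 25 and 24 CpG dinucleotides, against 54% and 10 for Ephb1. The median GC content was 64.2% over the 60 windows of members and 52.4% over all windows. A match describes these letters in this window, and no binding was measured.

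Of the other genes of these pathways, cytoplasmic effectors and co-receptors, 48 of 50 listed were measured and 0 passed an adjusted p of 0.05. At an unadjusted p under 0.05, 4 were higher and 2 lower (8.33% and 4.17%, against 5.5% and 3.94% of all genes), and 3 in all were under it without Tbx1 null replicate 1. The higher ones were Dpysl3 (log2 change 0.25), a collapsin response mediator, Met (0.34), the receptor of hepatocyte growth factor and a partner of B-type plexins, Chl1 (0.25), an adhesion molecule that joins neuropilins, and Rras (0.17), the small GTPase that plexins inactivate. Itgb1, the integrin chain that Sema7a engages, and Sdcbp, the adaptor syntenin that binds ephrin-B tails, had changes of -0.16 and -0.13. With arrays weighted, Dpysl3 and Met passed (adjusted p = 0.0172 and 0.0386). The list had a median change of 0.027. Its dimmest gene was Chl1, at a mean level of 6.13, under the first quartile of all genes (6.81). Whether Chl1 was above background was not judged.

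Among the 12 members at an unadjusted p under 0.05, 5 stayed under it in each of the 6 fits with 1 array left out: Epha3, Epha4, Sema4g, Sema6a and Plxna2. Sema3a and Sema6c did so in 4 of these fits, Sema3c and Epha7 in 3, and Sema4b, Ephb4 and Efnb2 in 1. All 12 kept the sign of their change in the 16 alternative settings, of which 15 could be computed for Sema6c. For the 11 whose arrays do not overlap, leaving out 1 array could not change the sign. The replicate block, the level filters, the variance estimates and the fit of all probe sets leave the change itself unaltered. Most settings thus could not have turned a sign, and the kept signs say little of stability. Genes below the median level of all genes held 14 of the members, of which 1 was higher and 0 lower, and 10 of the other 38 were higher and 1 lower. Among all genes 3.78% were higher and 4.33% lower below that level, and 7.22% were higher and 3.55% lower at or above it. No background probes were used here, so whether the dimmest members, such as Epha5 and Epha6, were above background was not judged.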

How the data were processed

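Expression was measured on 6 Affymetrix Mouse Gene ST 1.0 arrays (3 wild type, 3 Tbx1 null). The authors deposited log2 levels per probe set from RMA, run in version 1.1 of the Affymetrix Expression Console according to the submitters' processing notes. The build, summary level and filters are not stated there, and the log2 scale follows from the values. Because RMA equalises the arrays' distributions, a shift of most genes at once would be lost, and changes of dim probe sets are compressed. Of 35556 probe sets, 21789 had 1 gene symbol in the platform annotation, 1621 several and 12146 none. A RefSeq table (GRCm38.p6) matched 21698 of the first and changed 0 symbols; it also gave gene order and upstream sequences. Each gene was read by its probe set of highest mean (19938 genes; a tie took the lower identifier).

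Genotypes were compared in limma (version 3.58.1, R 4.3.3) by lmFit and eBayes, two-sided, with no covariate and all 6 arrays, with Benjamini-Hochberg adjustment across all genes and a threshold of 0.05. This fit was also tested on simulated data with known changes. At an adjusted p of 0.05 it recovered 26 of 50 changes of 1.25-fold, 44 of 50 of 1.5-fold, 50 of 50 of 2-fold and 50 of 50 of 4-fold. Of its 176 calls 6 were false. In the measured data 32 genes passed. More calls loosen the Benjamini-Hochberg cut-off, so these counts can overstate how many small changes the real fit would recover. The simulated noise was independent between genes and arrays, so it held no array that stood apart. The members and lists were chosen with earlier results of these data known. Named genes were Tbx1, members at an unadjusted p under 0.05, the 3 of largest change and 3 of highest level in each family, members whose arrays do not overlap or whose probe sets differ in sign, and up to 6 effectors. Others are named for completeness, after their values were seen. No array was a copy of another, and the table held 0 columns of other samples. Alternatives were a replicate block, leaving out each array, other normalisation, filters, weighting and variance estimates, other choices of probe sets, and the Y-linked level as a covariate.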

Additional observations from a re-analysis of the deposited data

How the results depend on the processing

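The main fit did not treat the replicate numbers as pairs. Same-numbered arrays deviated together with correlations of -0.045, 0.26 and 0.15, and arrays of unlike number with -0.37 to 0.25. With 3 arrays per genotype these values cannot show whether the arrays were paired. With the replicate block 0 members passed an adjusted p of 0.05. The unadjusted counts were then 12 higher and 2 lower, against 6.2% and 4.8% of all genes. Of all genes 6 passed an adjusted p of 0.05 with the block, against 32 without it. The count of members past an adjusted p of 0.05 was 0 in every setting but array weights, where it was 2. There 334 of all genes passed, and the ephrin median was 0.042. At an unadjusted p under 0.05, 17 members were higher and 2 lower with array weights, against 10.2% and 8.91% of all genes. Members lower at an unadjusted p were 3 after quantile normalisation again, 2 with the Y-linked level as a covariate and 0 with all probe sets fitted. The shares of all genes lower in these settings were 7.12%, 3.65% and 3.39%. The Eph receptor median was 0.053 after quantile normalisation again. Without genes below the median level it was 0.12 and the semaphorin median 0.12, where fewer members were tested (7 and 14). The cause of the other shifts was not tested.

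With 1 array left out, the higher members numbered 7 to 13 and the lower 0 to 2, the effectors at an unadjusted p under 0.05 3 to 9, and the medians ran from 0.035 to 0.084 for semaphorins, 0.0042 to 0.073 for plexins and neuropilins, 0.049 to 0.126 for Eph receptors and 0.044 to 0.094 for ephrins. Over all genes 4.04% to 6.96% were higher and 2.8% to 6.68% lower in these fits. Tbx1 lay between -2.00 and -1.84 and passed in every setting. Signal over background was not judged, which limits the dim members.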
